A study of Mus musculus with 8 samples.

Results

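The genes described here are 47 interferon-induced genes of the mouse, followed in epithelial cells of the colon. They were picked by gene symbol, with earlier results of these data known, and all 47 were found among the 24346 symbols of each deposited table. RNA was sequenced from untreated C57BL/6J mice of 4 genotypes in 8 libraries, 1 male and 1 female library per genotype. The genotypes were wild-type, St6galnac6-/- (labelled as a knockout of a sialyltransferase gene), B3galt5D116A (a substitution in a galactosyltransferase) and B3gnt7-/- (likewise of an N-acetylglucosaminyltransferase gene), whose enzymes build glycans such as those of intestinal mucins. The labels give no age, date or batch, do not describe the deleted segments, and do not say whether a library is 1 animal or a pool, so p-values speak only to how far these libraries differ among themselves. The question asked of these genes was whether their level differs between each mutant and wild-type.

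Interferons are secreted signals that switch on defence genes in the cells that sense them. Type I and type III interferons act through JAK kinases on a complex holding Stat2 and Irf9 that binds the interferon-stimulated response element (ISRE), whereas interferon gamma acts on the gamma-activated site (GAS) and through Irf1. In the gut, type III interferon acts mainly on epithelial cells, and interferon gamma, made by lymphocytes, induces guanylate-binding proteins and immunity-related GTPases that attack the vacuoles of intracellular microbes. The 47 genes were set out as 39 antiviral genes of the type I and III kind, 7 gamma-type GTPases and Irf1, which both kinds of interferon induce and which was put in neither set.

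Values are FPKM, read fragments corrected for transcript length and library size, and each pair of values below is the male library followed by the female library. Epithelial markers were high in every library. Their summed level over 10 genes ran from 12634 FPKM in the B3gnt7-/- female to 16776 in the wild-type male library. Relative sequencing depth, read from the steps between low values, ran from 1 in the wild-type male to 1.45 in the B3galt5D116A male library, and absolute depth is unknown. Both wild-type libraries were the shallowest, at 1 and 1.057 against 1.18 to 1.45 in the 6 mutant libraries, and listed the most genes at 0 (9175 and 8901 against 8471 to 8823). The part of depth in differences from wild-type was not tested. Of the targeted genes, St6galnac6 was at 368 and 343 FPKM in the wild-type pair and 218 and 232 in its mutant. For B3gnt7 the wild-type pair gave 215 and 189.8 FPKM and its mutant 68.8 and 142, so its 2 mutant libraries differed. Transcript of St6galnac6 and of B3gnt7 thus remained in the mutants named for them. B3galt5 gave 117 and 105 FPKM in the wild-type pair and 133 and 93.1 in its mutant, where a substitution leaves the transcript in place. The B3gnt7-/- female library stood apart in markers of stroma, vessel and muscle, at 26.9 FPKM summed over 12 genes against 4.11 to 5.45 in the other 7.

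As a mean over all members, the interferon-induced genes were lowest in wild-type and highest in the B3gnt7-/- male library. The mean of log2(FPKM + 1) over the 47 genes was 2.595 and 2.56 in wild-type, 2.69 and 2.89 in St6galnac6-/-, 2.74 and 2.79 in B3galt5D116A and 3.11 and 2.85 in B3gnt7-/-. Both wild-type libraries were thus below all 6 mutant libraries, and the St6galnac6-/- female and B3gnt7-/- female libraries came next after the B3gnt7-/- male. Relative to wild-type the mean differed by 0.21 in St6galnac6-/-, 0.19 in B3galt5D116A and 0.40 in B3gnt7-/-. The size depended on the measure: with a pseudocount of 0.1 in place of 1 the differences were 0.40, 0.36 and 0.67, and with 5 they were 0.10, 0.098 and 0.20. With the median over members in place of the mean, B3galt5D116A was below wild-type, by -0.18, and St6galnac6-/- and B3gnt7-/- were above it by 0.28 and 0.27. Without its female library the St6galnac6-/- mean difference was 0.11. By sex, male first, the mean differences were 0.096 and 0.33, 0.15 and 0.23, and 0.51 and 0.29. In a bulk library, fewer cells of a type and less RNA per cell cannot be told apart.

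**Figure D1:**
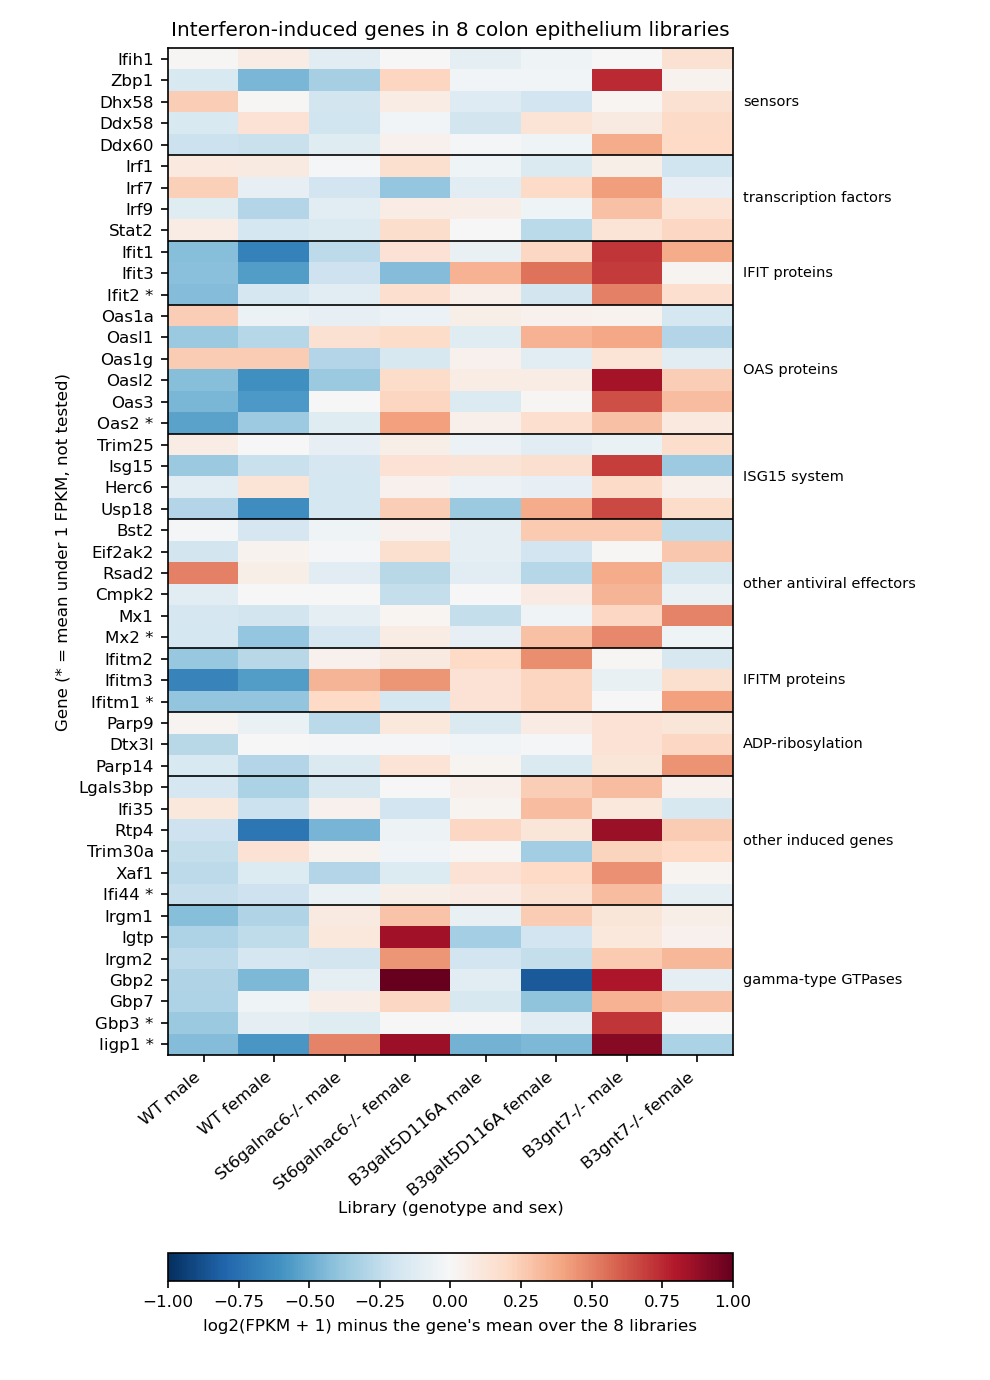
Each row is 1 of the 47 interferon-induced genes, grouped by role, and each column is 1 library; colour gives log2(FPKM + 1) minus the gene's mean over the 8 libraries, clipped at 1 on either side, and an asterisk marks the 7 genes that were not tested. Many antiviral genes are darkest red in the B3gnt7-/- male column, most gamma-type GTPases are red in the St6galnac6-/- female column, and the wild-type columns are mostly blue.

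Of the 47 genes, 40 averaged 1 FPKM or more and were tested with limma on log2(FPKM + 1), a scale that understates differences of low genes, in a fit of 11537 genes. Only Ifitm3 in St6galnac6-/- against wild-type passed at an adjusted p under 0.05 (1 of 40, against 0.0867% of all tested genes called). No tested member passed in B3galt5D116A against wild-type (0.078% of all genes called) or in B3gnt7-/- against wild-type (0.052% of all genes called). At an unadjusted p under 0.05 there were 7, 9 and 16 of the 40 genes in St6galnac6-/-, B3galt5D116A and B3gnt7-/-, beside 9.04%, 11.7% and 7.17% of all tested genes. The log2 differences were positive for 26, 23 and 35 of the 40 genes, with medians of 0.16, 0.11 and 0.36. Over all tested genes the share with a positive difference was 50.6%, 50.2% and 47.9%, and the medians were 0.0030, 0.0012 and -0.0095. The 3 comparisons share the wild-type libraries, so their values are not independent of each other.

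These counts moved with single libraries. In B3gnt7-/- without its male library, 29 of the 40 genes had a positive difference, the median was 0.24, and 7 genes were at an unadjusted p under 0.05. Without its female library, which carried the stromal markers, 33 were positive with a median of 0.42, and 17 were under 0.05. In St6galnac6-/- without its female library, 22 were positive with a median of 0.021, whereas without its male library 31 were positive with a median of 0.24. The 7 genes at an unadjusted p under 0.05 in St6galnac6-/- became 4 without its female library, and 4 or 3 without the wild-type male or female. In B3galt5D116A the 9 became 3 without its female library, and 5 or 4 without the wild-type male or female. In B3gnt7-/- the 16 became 10 or 6 without the wild-type male or female.

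**Figure D2:**
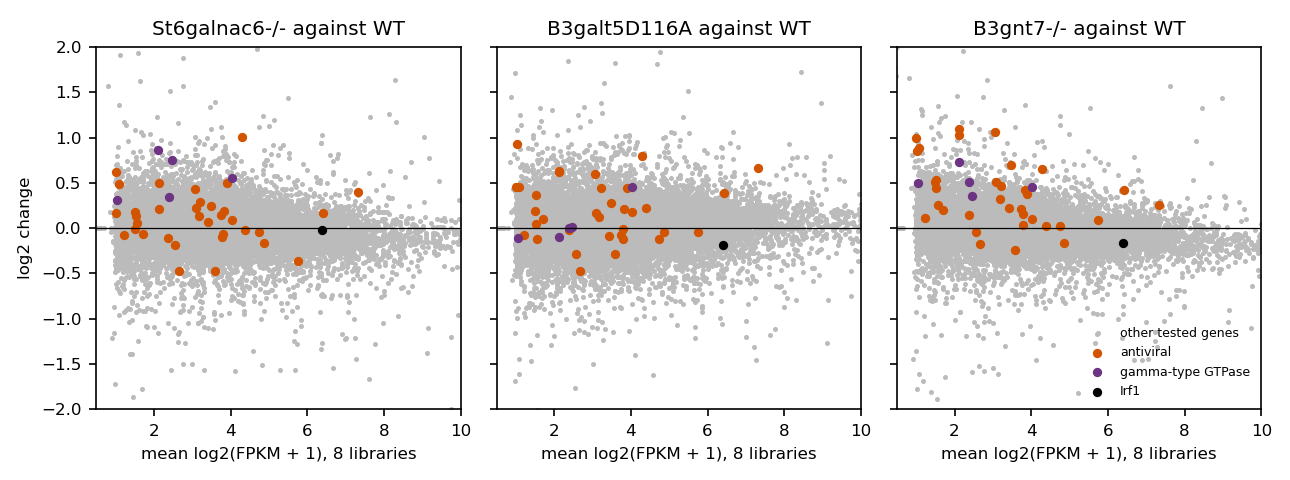
Log2 difference of each mutant from wild-type (vertical axis) against the mean log2(FPKM + 1) over the 8 libraries (horizontal axis), for all tested genes in grey and for the 40 tested interferon-induced genes in colour; genes beyond the axis limits are not drawn. In the B3gnt7-/- panel 35 of the 40 coloured points lie above 0, and in the other panels they lie on both sides.

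Libraries of a mutant and of wild-type did not overlap for many genes, which with 2 against 2 libraries is common. In St6galnac6-/- both libraries were above both wild-type libraries for 17 of the 40 genes (24.1% of all tested genes) and below for 4 (23.6%). In B3galt5D116A the counts were 16 above (26% of all tested genes) and 6 below (25.3%). In B3gnt7-/- they were 24 above (16% of all tested genes) and 2 below (18.6%). For 10 of the 40 genes (Ifit1, Oas3, Oasl2, Irf9, Ddx60, Parp14, Irgm1, Lgals3bp, Ifitm2 and Ifitm3) both wild-type libraries were below all 6 mutant libraries, an order seen in 7.23% of all tested genes. Among the 7 untested genes Oas2, Ifi44, Mx2 and Ifitm1 had this order, but no share was computed for other genes below the level for testing. The wild-type libraries were also the shallowest, and the part of depth in the order of such low genes was not tested. The opposite order, with wild-type above all mutants, was seen for Oas1g alone, beside 8.32% of all tested genes.

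By the median, the interferon-induced genes also had a wider range between libraries than all tested genes. They were chosen with earlier results of these data known, so comparisons with all tested genes are descriptions only. The median range over the 8 libraries was 0.71 on the log2(FPKM + 1) scale for the 40 genes and 0.49 for all tested genes. The B3gnt7-/- male library held the highest value of 20 of the 40 genes, beside 7.12% of all tested genes. Of these 20, 19 were antiviral and 1 was a gamma-type GTPase. The B3gnt7-/- female library held that of 8, all antiviral, beside 17.8% of all tested genes. The St6galnac6-/- female library held the highest value of 6 of the 40 genes, among them 4 of the 5 tested GTPases, beside 12.3% of all tested genes. Wild-type female was the lowest library for 12 of the 40 genes, beside 13.1% of all tested genes.

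Sequences around the starts of these genes were searched for the motifs that interferon-activated factors bind. RefSeq promoter windows of 300 bases (250 before and 50 after the start, build GRCm38.p6) matched 37 of the 47 genes. The ISRE core was searched as GAAANNGAAA and its reverse complement TTTCNNTTTC, and the GAS core as TTCNNNGAA, which is its own reverse complement, where N is any base. An ISRE core was present for 22 of the 37 genes (59.5%), beside 3.99% of 27025 genes with a window. A GAS core was present for 10 of the 37 (27.0%), beside 9.55% of all genes. Both were present for 7 of the 37 (18.9%), beside 0.614%. All 6 gamma-type GTPases with a window had an ISRE core in at least 1 window (Gbp3 in 1 of its 2) and 3 of the 6 a GAS core, and of 30 antiviral genes 16 had an ISRE core and 6 a GAS core. A match describes letters and is not evidence of binding, and the letters of both cores can overlap.

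**Figure D3:**
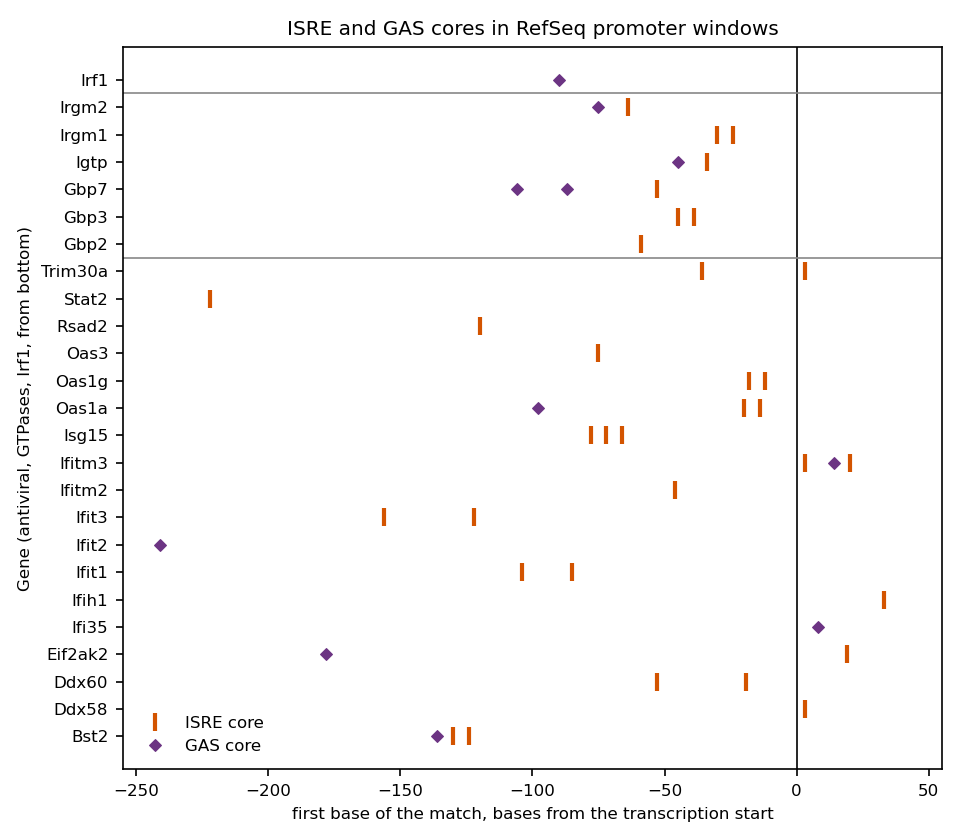
Position of each ISRE core (bars) and GAS core (diamonds) in bases from the RefSeq transcription start (horizontal axis), for the interferon-induced genes with at least 1 match (vertical axis). Most ISRE cores lie before the start, and GAS and ISRE cores stand next to each other in Igtp and Irgm2.

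The IFITM proteins are small membrane proteins that block the entry of viruses by fusion, and their genes lie together on chromosome 7. Ifitm3 (mm10 chromosome 7 from 141009586 to 141010770, minus strand, GENCODE M21) was at 11.3 and 12.3 in wild-type, 23.8 and 25.5 in St6galnac6-/-, 20.7 and 21.7 in B3galt5D116A and 17.6 and 20.8 FPKM in B3gnt7-/-. Both St6galnac6-/- libraries were above the other 6, and both wild-type libraries were below. Ifitm3 rose in St6galnac6-/- by a log2 difference of 1.001 (SE 0.11, adjusted p = 0.0435). That difference stayed between 0.98 and 1.02 when any single library was left out, but the adjusted p was 0.057 to 0.522 without either B3galt5D116A, St6galnac6-/- or wild-type library, and 0.0566 after quantile normalization. It was also not called with a pseudocount of 5, no filter on low values or a constant prior variance. In B3galt5D116A its log2 difference was 0.79 (SE 0.11, adjusted p = 0.0884) and in B3gnt7-/- 0.65 (SE 0.11, adjusted p = 0.249), neither past the threshold although no mutant library overlapped wild-type. Ifitm2, a close paralogue, had the highest level of the 47 genes. It was at 122 and 131 in wild-type, 163 and 169 in St6galnac6-/-, 182 and 219.9 in B3galt5D116A and 159.7 and 142 FPKM in B3gnt7-/-. Both of its wild-type libraries were the lowest, and its largest log2 difference, in B3galt5D116A, was 0.66 (SE 0.14, adjusted p = 0.266). In St6galnac6-/- the difference was 0.39 (SE 0.14, adjusted p = 0.4802) and in B3gnt7-/- 0.25 (SE 0.14, adjusted p = 0.769). Ifitm1 was listed at 0 in both wild-type libraries and at 0.1602 to 0.7399 FPKM in the 6 mutant libraries, which are also the deeper ones, and was not tested. Goblet cell markers, summed over 11 genes, were at 7409 and 7141 in wild-type, 11344 and 13345 in St6galnac6-/-, 11187 and 11580.2 in B3galt5D116A and 9982 and 11779 FPKM in B3gnt7-/-. Both wild-type libraries were the lowest of the 8 there as well. Of the 11 goblet markers 9, 11 and 11 had a positive difference in St6galnac6-/-, B3galt5D116A and B3gnt7-/-, and 1, Ang4, passed the limma test in St6galnac6-/-. The part of goblet cells in the Ifitm3 difference was not tested.

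Promoter windows of the 2 abundant IFITM genes are shown because Ifitm3 alone passed the test; capitals mark ISRE and GAS cores, read 5′ to 3′ on the gene's strand. The Ifitm3 window (chr7:141010715-141010814, minus strand) holds 2 ISRE cores and 1 GAS core just after the RefSeq start, sharing letters, and the Ifitm2 window (chr7:140955953-140956052, minus strand) holds 1 ISRE core before its start.
Ifitm3: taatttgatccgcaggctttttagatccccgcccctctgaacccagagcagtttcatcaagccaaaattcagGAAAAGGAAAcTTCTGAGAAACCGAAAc
Ifitm2: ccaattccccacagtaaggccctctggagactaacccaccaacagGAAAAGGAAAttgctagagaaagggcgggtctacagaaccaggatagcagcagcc

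**Figure D4:**
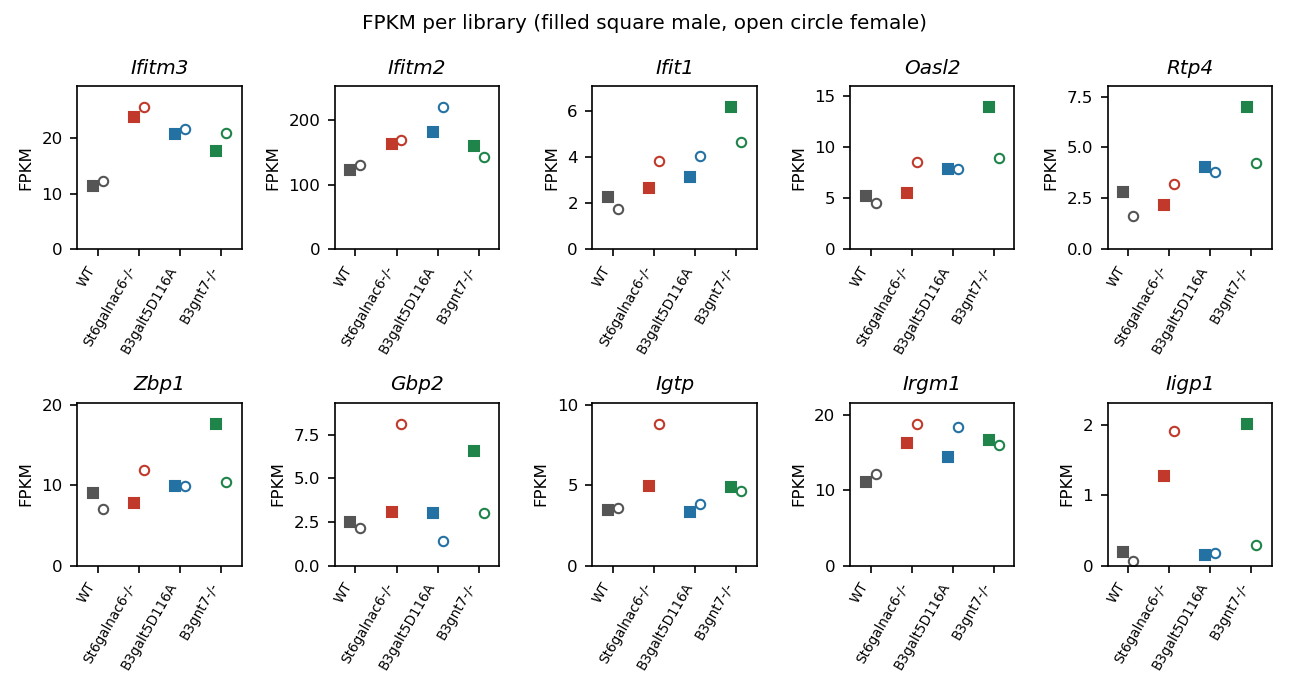
FPKM of 10 interferon-induced genes in each library, by genotype (horizontal axis), with filled squares for males and open circles for females; each vertical axis starts at 0. Ifitm3 and Ifitm2 are lowest in wild-type, Ifit1, Oasl2, Rtp4 and Zbp1 are highest in the B3gnt7-/- male library, and Gbp2, Igtp and Irgm1 are highest in the St6galnac6-/- female library.

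Among the cytosolic sensors of viral nucleic acid, Ifih1 (MDA5, a receptor for long double-stranded RNA) had the highest mean level. It was at 12.9 and 13.5 in wild-type, 11.8 and 12.7 in St6galnac6-/-, 11.9 and 12.4 in B3galt5D116A and 12.8 and 14.3 FPKM in B3gnt7-/-, and its libraries lay close together. Zbp1, which senses Z-form nucleic acid and can start cell death, was at 9.01 and 7.095 in wild-type, 7.82 and 11.9 in St6galnac6-/-, 9.94 and 9.95 in B3galt5D116A and 17.7 and 10.4 FPKM in B3gnt7-/-. Its B3gnt7-/- male library stood above the other 7, and its log2 difference in B3gnt7-/- was 0.70 (SE 0.27, adjusted p = 0.665). Ddx60, a helicase, was at 1.42 to 1.44 FPKM in wild-type and 1.598 to 2.67 in the mutants, with a log2 difference of 0.51 (SE 0.17, adjusted p = 0.632) in B3gnt7-/-. Dhx58 (LGP2, a regulator of the other sensors) was at 5.98 and 4.93 in wild-type, 4.19 and 5.19 in St6galnac6-/-, 4.37 and 4.16 in B3galt5D116A and 4.96 and 5.56 FPKM in B3gnt7-/-. Wild-type male was its highest library and the genotypes overlapped except in B3galt5D116A, where the difference was -0.29 (SE 0.16, adjusted p = 0.4998). Ddx58 (RIG-I) ranged from 3.53 to 4.92 FPKM.

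The transcription factors of the response differed in level and in spread between libraries. Irf1, the most abundant of the 4, was at 89.3 and 88.5 in wild-type, 82.04 and 93.1 in St6galnac6-/-, 80.5 and 75.1 in B3galt5D116A and 86.6 and 72.5 FPKM in B3gnt7-/-. Its log2 difference was -0.19 (SE 0.13, adjusted p = 0.566) in B3galt5D116A and -0.16 (SE 0.13, adjusted p = 0.842) in B3gnt7-/-, with both mutants' libraries below wild-type. Irf7, which amplifies type I interferon production, was at 62.6 and 49.96 in wild-type, 46.1 and 40.2 in St6galnac6-/-, 48.8 and 60.5 in B3galt5D116A and 70.7 and 49.8 FPKM in B3gnt7-/-. Both St6galnac6-/- libraries were the lowest for Irf7, with a difference of -0.37 (SE 0.19, adjusted p = 0.621). Irf9 was at 10.6 to 12.1 FPKM in wild-type and 12.1 to 16.4 in the mutants, with its largest difference, 0.42 (SE 0.13, adjusted p = 0.587), in B3gnt7-/-. Stat2 ranged from 7.88 to 11.3 FPKM and its differences from wild-type lay between -0.087 and 0.22.

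IFIT proteins bind foreign RNA ends and stop its translation, and their genes form a cluster on chromosome 19. Ifit1 was at 2.25 and 1.73 in wild-type, 2.65 and 3.84 in St6galnac6-/-, 3.15 and 4.04 in B3galt5D116A and 6.16 and 4.64 FPKM in B3gnt7-/-. All mutant libraries were above wild-type, and the B3gnt7-/- pair was the highest. Its log2 differences were 0.50 (SE 0.22, adjusted p = 0.567) in St6galnac6-/-, 0.62 (SE 0.22, adjusted p = 0.391) in B3galt5D116A and 1.09 (SE 0.22, adjusted p = 0.339) in B3gnt7-/-, the largest of any tested member there. Ifit3 was at 0.517 and 0.382 in wild-type, 0.757 and 0.508 in St6galnac6-/-, 1.58 and 1.96 in B3galt5D116A and 2.29 and 1.07 FPKM in B3gnt7-/-. Here B3galt5D116A and B3gnt7-/- did not overlap wild-type, with differences of 0.93 (SE 0.25, adjusted p = 0.343) and 0.85 (SE 0.25, adjusted p = 0.5202), whereas St6galnac6-/- overlapped it, with 0.17 (SE 0.25, adjusted p = 0.892). Ifit2 was at 0.138 to 0.367 FPKM in wild-type and 0.3501 to 1.18 in the mutants, below the level for testing. These paralogues share sequence, so reads may be split between them.

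The windows of Ifit1 (chr19:34640740-34640839, plus strand) and Ifit3 (chr19:34583328-34583427, plus strand) are shown since the pair had large differences; both hold 2 ISRE cores on the reverse strand and no GAS core, in capitals.
Ifit1: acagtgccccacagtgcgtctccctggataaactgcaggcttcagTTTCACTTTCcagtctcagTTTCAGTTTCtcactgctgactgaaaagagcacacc
Ifit3: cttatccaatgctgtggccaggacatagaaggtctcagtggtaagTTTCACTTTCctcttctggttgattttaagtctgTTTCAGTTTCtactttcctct

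The OAS family makes or resembles enzymes that make the 2′-5′ oligoadenylates activating RNase L, and its 6 members all lie on chromosome 5. They split in direction. Oas1a, the most abundant, was at 33.5 and 26.9 in wild-type, 26.5 and 26.9 in St6galnac6-/-, 29.3 and 29.1 in B3galt5D116A and 28.9 and 24.8 FPKM in B3gnt7-/-. Its differences from wild-type were -0.16 (SE 0.12, adjusted p = 0.751) in St6galnac6-/- and -0.16 (SE 0.12, adjusted p = 0.838) in B3gnt7-/-. Oas1g was at 13.3 and 13.2 in wild-type, 8.76 and 9.72 in St6galnac6-/-, 11.3 and 10.02 in B3galt5D116A and 12.1 and 10.04 FPKM in B3gnt7-/-, with both wild-type libraries above every mutant library and a difference of -0.48 (SE 0.13, adjusted p = 0.356) in St6galnac6-/-. It was -0.29 (SE 0.13, adjusted p = 0.446) in B3galt5D116A and -0.24 (SE 0.13, adjusted p = 0.764) in B3gnt7-/-. Oas1a and Oas1g are paralogues in 1 gene cluster, and reads may be split between them.

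Of the other OAS genes, Oasl2 was at 5.24 and 4.48 in wild-type, 5.5001 and 8.52 in St6galnac6-/-, 7.85 and 7.83 in B3galt5D116A and 13.9 and 8.94 FPKM in B3gnt7-/-, highest in the B3gnt7-/- male library, with a log2 difference of 1.06 (SE 0.25, adjusted p = 0.401) in B3gnt7-/-. Oas3 was at 0.457 and 0.348 in wild-type, 0.997 and 1.33 in St6galnac6-/-, 0.818 and 1.02 in B3galt5D116A and 2.13 and 1.48 FPKM in B3gnt7-/-. All mutant libraries lay above wild-type for both genes, and the Oas3 difference was 0.62 (SE 0.22, adjusted p = 0.487) in St6galnac6-/- and 0.99 (SE 0.22, adjusted p = 0.385) in B3gnt7-/-. Oasl1 was at 10.5 and 11.2 in wild-type, 15.6 and 15.9 in St6galnac6-/-, 12.7 and 18.003 in B3galt5D116A and 18.4 and 11.1 FPKM in B3gnt7-/-. Its B3gnt7-/- female library was at the wild-type level and its male library was the highest of the 8. Oas2, untested, was at 0.0282 to 0.161 FPKM in the wild-type pair and 0.371 to 0.975 in the mutants.

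Isg15 is a ubiquitin-like protein attached to other proteins during the response, Trim25 and Herc6 are ligases and Usp18 removes Isg15 and dampens the type I receptor. Isg15 was at 6.15 and 6.905 in wild-type, 7.205 and 9.19 in St6galnac6-/-, 9.11 and 9.32 in B3galt5D116A and 13.9 and 6.17 FPKM in B3gnt7-/-. Among these the B3gnt7-/- male library was the highest of the 8 and the female library was at the wild-type level, with a difference of 0.46 (SE 0.31, adjusted p = 0.8104). Usp18 was at 0.724 and 0.375 in wild-type, 0.866 and 1.501 in St6galnac6-/-, 0.634 and 1.72 in B3galt5D116A and 2.34 and 1.397 FPKM in B3gnt7-/-, with a difference of 0.88 (SE 0.33, adjusted p = 0.657) in B3gnt7-/-. Trim25, the most abundant of the 4, was at 27.1 and 25.8 in wild-type, 24.2 and 26.9 in St6galnac6-/-, 24.7 and 23.9 in B3galt5D116A and 24.6 and 29.2 FPKM in B3gnt7-/- and differed from wild-type by -0.12 to 0.018. Herc6 ranged from 1.07 to 1.67 FPKM.

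Windows of Isg15 (chr4:156200842-156200941, minus strand) and Oas3 (chr5:120777680-120777779, minus strand) are printed for contrast: Isg15 has 3 overlapping ISRE cores and Oas3 has 1, in capitals.
Isg15: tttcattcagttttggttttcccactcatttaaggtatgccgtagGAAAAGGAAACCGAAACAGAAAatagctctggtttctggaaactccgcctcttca
Oas3: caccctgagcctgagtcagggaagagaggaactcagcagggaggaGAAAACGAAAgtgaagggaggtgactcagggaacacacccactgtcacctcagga

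Of the other antiviral effectors, Bst2 (tetherin, which holds budding virions at the cell surface) was at 15.2 and 13.6 in wild-type, 14.9 and 15.9 in St6galnac6-/-, 14.4 and 18.6 in B3galt5D116A and 18.6 and 12.7 FPKM in B3gnt7-/-. Each mutant's libraries overlapped wild-type. Eif2ak2 (PKR, which shuts down translation) was at 10.8 and 12.7 in wild-type, 12.2 and 13.9 in St6galnac6-/-, 11.5 and 10.7 in B3galt5D116A and 12.5 and 15.1 FPKM in B3gnt7-/-, and its B3gnt7-/- difference was 0.21 (SE 0.13, adjusted p = 0.792). Rsad2 (viperin, which makes a chain-terminating nucleotide) was at 8.01 and 5.61 in wild-type, 4.86 and 4.24 in St6galnac6-/-, 4.88 and 4.21 in B3galt5D116A and 7.18 and 4.67 FPKM in B3gnt7-/-. It went the other way from most members, with both St6galnac6-/- and both B3galt5D116A libraries below wild-type and differences of -0.48 (SE 0.15, adjusted p = 0.417) and -0.48 (SE 0.15, adjusted p = 0.366). In B3gnt7-/- it was -0.18 (SE 0.15, adjusted p = 0.842). Cmpk2, its neighbour on chromosome 12, which makes the substrate of viperin, ranged from 1.75 to 3.13 FPKM. Mx1 was at 1.53 to 1.55 FPKM in wild-type and at 2.31 to 3.04 in B3gnt7-/-, a difference of 0.53 (SE 0.17, adjusted p = 0.603). Mx2 was untested at 0.221 to 1.23 FPKM, and C57BL/6J mice carry Mx alleles that do not make working protein.

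The 3 genes of ADP-ribosylation work together: Parp9 and Dtx3l form an enzyme complex and Parp14 regulates STAT signalling. Parp9 was at 13.1 and 12.2 in wild-type, 10.5 and 13.9 in St6galnac6-/-, 11.5 and 13.6 in B3galt5D116A and 14.3 and 14.1 FPKM in B3gnt7-/-, and Dtx3l was at 6.43 and 7.98 in wild-type, 7.92 and 7.96 in St6galnac6-/-, 7.85 and 7.97 in B3galt5D116A and 8.97 and 9.44 FPKM in B3gnt7-/-. For Dtx3l the B3gnt7-/- libraries were the highest, with a difference of 0.32 (SE 0.13, adjusted p = 0.6704). Parp14 was highest in the B3gnt7-/- female library, at 10.6 FPKM, and its difference was 0.51 (SE 0.17, adjusted p = 0.613). Dtx3l and Parp9 overlap on opposite strands, and whether the authors counted by strand is not given in the sources used here.

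The last antiviral group held genes of mixed roles. Lgals3bp, a secreted galectin-binding glycoprotein and the most abundant of these, was at 74.9 and 67.6 in wild-type, 75.6 and 84.8 in St6galnac6-/-, 87.3 and 100.4 in B3galt5D116A and 105 and 87.02 FPKM in B3gnt7-/-. Wild-type was below all mutants, with differences of 0.39 (SE 0.15, adjusted p = 0.402) in B3galt5D116A and 0.42 (SE 0.15, adjusted p = 0.638) in B3gnt7-/-. Ifi35 was at 21.4 and 16.9 in wild-type, 20.5 and 17.3 in St6galnac6-/-, 20.3 and 24.8 in B3galt5D116A and 21.4 and 17.6 FPKM in B3gnt7-/-, overlapping between genotypes. Rtp4, a chaperone of receptors at the cell surface, was at 2.79 and 1.65 in wild-type, 2.17 and 3.21 in St6galnac6-/-, 4.04 and 3.77 in B3galt5D116A and 6.97 and 4.22 FPKM in B3gnt7-/-. Its B3galt5D116A and B3gnt7-/- libraries were above wild-type, with differences of 0.63 (SE 0.26, adjusted p = 0.414) and 1.03 (SE 0.26, adjusted p = 0.443). Trim30a was at 1.505 and 2.25 in wild-type, 2.023 and 1.89 in St6galnac6-/-, 1.97 and 1.31 in B3galt5D116A and 2.43 and 2.38 FPKM in B3gnt7-/-, with a difference of -0.12 (SE 0.21, adjusted p = 0.825) in B3galt5D116A that was 0.11 without that mutant's female library and 0.14 without the wild-type female. Xaf1, a pro-apoptotic factor, ranged from 1.33 to 2.92 FPKM, and Ifi44, untested, from 0.229 to 0.788.

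As a mean, the gamma-type GTPases followed another order of genotypes than the antiviral genes, but single genes differed. Mean FPKM was higher in St6galnac6-/- than in B3gnt7-/- for Gbp2, Igtp, Irgm1 and Iigp1. It was higher in B3gnt7-/- for Irgm2, Gbp7 and Gbp3. Guanylate-binding proteins (Gbp2, Gbp3 and Gbp7, neighbours on chromosome 3) and immunity-related GTPases (Igtp, Irgm1, Irgm2 and Iigp1) are families that coat and break the vacuoles of bacteria and protozoa. Some immunity-related GTPases, such as Irgm1 and Irgm2, restrain others. Gbp2 was at 2.52 and 2.18 in wild-type, 3.05 and 8.13 in St6galnac6-/-, 3.03 and 1.42 in B3galt5D116A and 6.56 and 3.04 FPKM in B3gnt7-/-. Its St6galnac6-/- female and B3gnt7-/- male libraries stood above the other 6, and its St6galnac6-/- difference was 0.86 (SE 0.46, adjusted p = 0.6298), which was -0.021 without that female library. Igtp was at 3.46 and 3.61 in wild-type, 4.94 and 8.84 in St6galnac6-/-, 3.36 and 3.83 in B3galt5D116A and 4.93 and 4.67 FPKM in B3gnt7-/-, again highest in the St6galnac6-/- female, with 0.75 (SE 0.21, adjusted p = 0.346) in St6galnac6-/- and 0.017 (SE 0.21, adjusted p = 0.979) in B3galt5D116A. Irgm1, the most abundant, was at 11.1 and 12.2 in wild-type, 16.4 and 18.9 in St6galnac6-/-, 14.5 and 18.4 in B3galt5D116A and 16.7 and 15.98 FPKM in B3gnt7-/-. All mutant libraries were above wild-type, with differences of 0.55 (SE 0.13, adjusted p = 0.264) in St6galnac6-/-, 0.46 (SE 0.13, adjusted p = 0.354) in B3galt5D116A and 0.46 (SE 0.13, adjusted p = 0.499) in B3gnt7-/-. None of the 5 tested GTPases passed the limma test in any comparison.

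Of the remaining GTPases, Irgm2 had levels near those of Igtp and the others were lower. Irgm2 was at 3.37 and 3.67 in wild-type, 3.62 and 6.12 in St6galnac6-/-, 3.58 and 3.44 in B3galt5D116A and 5.29 and 5.59 FPKM in B3gnt7-/-, with a difference of 0.51 (SE 0.19, adjusted p = 0.657) in B3gnt7-/-. Gbp7 was at 0.562 to 1.62 FPKM, with 0.49 (SE 0.21, adjusted p = 0.695) in B3gnt7-/-. Iigp1, untested, was at 0.189 and 0.0717 in wild-type, 1.27 and 1.91 in St6galnac6-/-, 0.156 and 0.1797 in B3galt5D116A and 2.01 and 0.288 FPKM in B3gnt7-/-. Both St6galnac6-/- libraries and the B3gnt7-/- male library were above 1 FPKM, and the other 5 were at 0.288 or less. Gbp3, also untested, was at 2.04 FPKM in the B3gnt7-/- male library and at 0.4301 to 0.847 in the other 7. The annotated spans of Igtp and Irgm2 overlap on the same strand of chromosome 11, so reads may be shared between them.

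Windows of 4 GTPase genes are shown because each GTPase gene with a window had an ISRE core in at least 1. The Gbp2 window (chr3:142620559-142620658, plus strand) holds 1 ISRE core on the reverse strand. In Igtp (chr11:58199466-58199565, plus strand) and Irgm2 (chr11:58214857-58214956, plus strand) a GAS core is followed after 2 bases by an ISRE core, and these windows were identical at 97 of 100 bases. The Irgm1 window (chr11:48871396-48871495, minus strand) holds 2 overlapping ISRE cores.
Gbp2: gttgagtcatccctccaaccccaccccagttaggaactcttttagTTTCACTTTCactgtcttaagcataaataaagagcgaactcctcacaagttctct
Igtp: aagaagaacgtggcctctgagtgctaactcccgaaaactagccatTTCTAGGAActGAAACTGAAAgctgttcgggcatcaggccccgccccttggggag
Irgm2: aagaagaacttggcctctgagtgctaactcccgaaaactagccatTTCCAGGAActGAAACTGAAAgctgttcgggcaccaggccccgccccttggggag
Irgm1: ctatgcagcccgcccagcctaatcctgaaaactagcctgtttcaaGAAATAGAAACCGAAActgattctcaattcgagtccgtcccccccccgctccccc

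The antiviral genes and the GTPases were then set against each other as means of log2(FPKM + 1). The antiviral mean over 39 genes was 2.67 and 2.62 in wild-type, 2.72 and 2.87 in St6galnac6-/-, 2.83 and 2.91 in B3galt5D116A and 3.15 and 2.92 in B3gnt7-/-. The GTPase mean over 7 genes was 1.600 and 1.67 in wild-type, 1.996 and 2.47 in St6galnac6-/-, 1.75 and 1.66 in B3galt5D116A and 2.41 and 1.99 in B3gnt7-/-. Antiviral genes were above wild-type by 0.15 in St6galnac6-/-, 0.22 in B3galt5D116A and 0.39 in B3gnt7-/-, whereas GTPases were above it by 0.60, 0.071 and 0.56. The antiviral mean less the GTPase mean was therefore 1.01 in wild-type, 0.56 in St6galnac6-/-, 1.16 in B3galt5D116A and 0.84 in B3gnt7-/-. In St6galnac6-/- the difference of this contrast from wild-type was -0.45, and it was negative in both sexes (-0.35 and -0.55). In B3galt5D116A it was 0.15 (0.0030 and 0.30 by sex), and in B3gnt7-/- -0.17 (-0.34 and -0.011). Among tested genes, 5 of 5 GTPases had a positive difference in St6galnac6-/- and in B3gnt7-/- and 2 of 5 in B3galt5D116A, where the median was -0.0016. The counts for the 34 tested antiviral genes were 21, 30 and 21 in St6galnac6-/-, B3gnt7-/- and B3galt5D116A. The median GTPase difference in St6galnac6-/- was 0.55, and 0.24 without the female library.

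**Figure D5:**
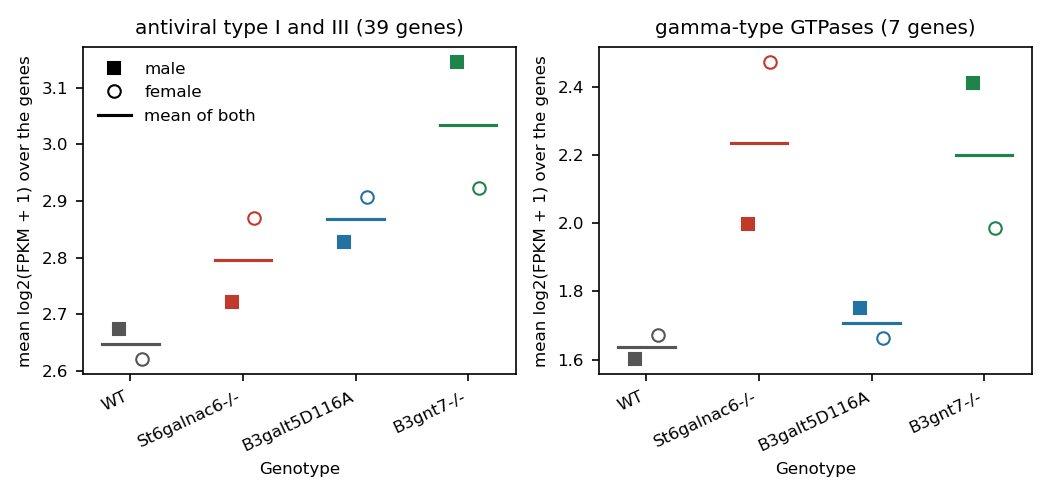
Mean log2(FPKM + 1) over the 39 antiviral genes (left) and over the 7 gamma-type GTPases (right) in each library, by genotype, with filled squares for males, open circles for females and a line at their mean; the vertical axes differ and do not start at 0. The antiviral mean is highest in the B3gnt7-/- male library at 3.15, and the GTPase mean in the St6galnac6-/- female library at 2.47, with B3galt5D116A near wild-type.

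Markers of lymphocytes and of other cells were read in the same libraries. Of the 10 epithelial markers 1, 5 and 3 had a positive difference in St6galnac6-/-, B3galt5D116A and B3gnt7-/-. Their median differences were -0.18, 0.016 and -0.13, with none past the threshold, and the part of epithelial content was not tested. Summed over 14 markers of T and intraepithelial lymphocytes, the level was 29.6 and 22.4 in wild-type, 24.3 and 19.9 in St6galnac6-/-, 14.3 and 40.5 in B3galt5D116A and 43.6 and 39.1 FPKM in B3gnt7-/-. Both St6galnac6-/- libraries and the B3galt5D116A male were within or below the wild-type range, and the B3gnt7-/- libraries and the B3galt5D116A female were above it. In B3gnt7-/- 8 of 8 tested lymphocyte markers and 5 of 6 tested myeloid markers had a positive difference, with medians of 0.48 and 0.36 and none past the threshold. Myeloid markers summed over 13 genes ran from 28.1 to 40.2 FPKM, with the B3gnt7-/- pair highest, and Adgre1, which defines mature macrophages, was at 0 to 0.0865 FPKM. Siglech, which defines plasmacytoid dendritic cells, was listed at 0 in all 8 libraries. The 6 markers of these cells, which include Siglech and Bst2, summed to 46.9 to 56.0 FPKM, and 4 of them averaged 1 FPKM or more. Of these, 4 of 4 had a positive difference in St6galnac6-/- and 2 of 4 in each other mutant, with none past the threshold. B and plasma cell markers summed to 0.221 to 0.922 FPKM over 7 genes. Markers of cycling crypt cells, over 12 genes, were 158 and 168 in wild-type, 192 and 342 in St6galnac6-/-, 262 and 278 in B3galt5D116A and 275 and 177 FPKM in B3gnt7-/-, highest in the St6galnac6-/- female library. Both wild-type libraries were the lowest, as for the mean over the interferon-induced genes, and 12 of 12 cycling markers had a positive difference in each mutant, with medians of 0.69 in St6galnac6-/-, 0.78 in B3galt5D116A and 0.41 in B3gnt7-/-. Markers of absorptive colonocytes, over 11 genes, summed to 15653 and 15052 in wild-type, 12792 and 10236 in St6galnac6-/-, 14261 and 22872 in B3galt5D116A and 18428 and 11066 FPKM in B3gnt7-/-. In St6galnac6-/- 11 of 11 had a negative difference, with a median of -0.40 and 5 at an unadjusted p under 0.05, and none passed the limma test. The part of lymphocytes, myeloid cells, plasmacytoid dendritic cells, cycling cells and absorptive cells in the differences of the interferon-induced genes was not tested.

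Between mutants no member passed the limma test. This held for St6galnac6-/- against B3galt5D116A (0.026% of all tested genes called), St6galnac6-/- against B3gnt7-/- (0.0433%) and B3galt5D116A against B3gnt7-/- (0.00867%). At an unadjusted p under 0.05 these comparisons had 2, 6 and 5 of the 40 genes, beside 3.51%, 3.81% and 4.204% of all tested genes. Igtp and Ifit3 separated St6galnac6-/- from B3galt5D116A in opposite directions, Igtp by 0.74 (SE 0.21, adjusted p = 0.917) and Ifit3 by -0.77 (SE 0.25, adjusted p = 0.917). Rtp4 was lower in St6galnac6-/- than in B3gnt7-/- by a log2 difference of -0.82 (SE 0.26, adjusted p = 1), while Ifitm3 was higher by 0.35 (SE 0.11, adjusted p = 1). In B3galt5D116A against B3gnt7-/- the differences were -0.60 (SE 0.21, adjusted p = 0.7699) for Gbp7 and 0.41 (SE 0.14, adjusted p = 0.7699) for Ifitm2. St6galnac6-/- was below B3gnt7-/- for 32 of the 40 genes (median -0.20), and B3galt5D116A was below it for 33 (median -0.19). Over all tested genes 55.6% and 53.0% of the differences were positive in these comparisons, with medians of 0.021 and 0.015.

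Males and females were compared over the genotypes, with 4 libraries each. No member passed in male against female, beside 0.052% of all tested genes called, and 1 of 40 was at an unadjusted p under 0.05, beside 1.66% of all tested genes. That gene was Rsad2, with a log2 difference of 0.33 (SE 0.11, adjusted p = 0.9998), at a mean of 6.23 FPKM in males and 4.68 in females. With 1 library for each sex and genotype, no interaction of sex with genotype was fitted.

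Upstream of the 47 genes, the ligands were barely seen and no receptor passed the test. Of 21 interferon genes none reached a mean of 1 FPKM, and 18 were listed at 0 in all 8 libraries. Ifng was at 0.103 and 0.293 in wild-type, 0.676 and 0.227 in St6galnac6-/-, 0.141 and 0.734 in B3galt5D116A and 0.732 and 0 FPKM in B3gnt7-/-, in no order of genotype. All 6 receptor chains were tested. All 6 differences were negative in St6galnac6-/-, with a median of -0.095, and 1, that of Ifngr1, was at an unadjusted p under 0.05. Ifngr1, the ligand-binding chain for interferon gamma, was at 181 and 162 in wild-type, 139 and 133 in St6galnac6-/-, 144 and 153 in B3galt5D116A and 152 and 139 FPKM in B3gnt7-/-, with a difference of -0.33 (SE 0.12, adjusted p = 0.504) in St6galnac6-/-. Both wild-type libraries were above all 6 mutant libraries for Ifngr1. Ifnar2, a chain of the type I receptor, ran from 2.13 to 4.18 FPKM, and Ifnlr1, specific to type III interferon, from 3.96 to 6.49 FPKM. Of 5 kinases and STATs none passed. Jak2, a kinase of the interferon gamma receptor, had -0.48 (SE 0.11, adjusted p = 0.278) in B3galt5D116A, with both libraries below wild-type.

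Further genes of the pathway had 0 past the limma threshold in every comparison with wild-type. These were 7 tested negative regulators of 8, 15 tested genes of nucleic acid sensing of 18, 32 tested of 46 other interferon-induced genes, 2 tested of 11 other gamma-type GTPases, and 14 tested of 19 gamma-type response genes such as those of antigen presentation. At an unadjusted p under 0.05 the other interferon-induced genes numbered 2, 2 and 6 in St6galnac6-/-, B3galt5D116A and B3gnt7-/-, and the gamma-type response genes 1, 1 and 2, beside the 9.04%, 11.7% and 7.17% of all tested genes given above. In B3gnt7-/- 21 of the 32 other interferon-induced genes had a positive difference, with a median of 0.058, beside 35 of 40 and 0.36 for the genes described above. The 2 tested other gamma-type GTPases had median differences of 0.20, 0.26 and 0.47 in St6galnac6-/-, B3galt5D116A and B3gnt7-/-. For the 14 tested gamma-type response genes the medians were -0.033, 0.038 and 0.0073. Samd9l, an antiviral factor, had a difference of 0.45 (SE 0.11, adjusted p = 0.403) in B3gnt7-/-. Among gamma-type response genes Tap2, a peptide transporter, had -0.59 (SE 0.12, adjusted p = 0.256) in B3galt5D116A, Wars had 0.48 (SE 0.15, adjusted p = 0.432) in St6galnac6-/-, and the chemokine Cxcl10 had -1.58 (SE 0.59, adjusted p = 0.658) in B3gnt7-/-, where its female library was at 0.781 FPKM. The phosphatase Ptpn2, which dampens JAK signalling, had -0.33 (SE 0.12, adjusted p = 0.657) in B3gnt7-/-, and the sensor adaptor Tmem173 (STING) had 0.45 (SE 0.15, adjusted p = 0.453) in St6galnac6-/-. Sp100, a nuclear body protein, had -0.75 (SE 0.16, adjusted p = 0.268) in B3galt5D116A.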

How the data were processed

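Per the submitters' processing notes, reads were handled with TopHat2 2.1.1, Bowtie2 2.2.8, SAMtools 0.1.18 and Cuffdiff 2.2.1 on mm10; roles, annotation and scaling between libraries are not given in the sources used here. The authors deposited FPKM values per gene symbol, 1 table per library, with no counts, so absolute depth is unknown and a 0 can also be a failed estimate. The 47 members and all gene lists were chosen with earlier results of these data known.

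Values were taken as log2 of the deposited FPKM plus a pseudocount of 1. Genes averaging 1 FPKM or more (11537) were fitted with limma 3.58.1 in R 4.3.3 (genotype plus sex, eBayes with trend, 3 residual and 4.02 prior degrees of freedom). P-values were two-sided and adjusted by Benjamini-Hochberg over all genes of a comparison, with a threshold of 0.05. The fit was also run on simulated data with added differences. That outcome is not given here, so it does not show what size of difference could be called. Means over members are descriptions with no test. Genes named with all 8 values were those called, the 2 most abundant of each role, and the 5 highest and 5 lowest log2 differences per mutant; other members have ranges or values, and pathway lists up to 3 genes by smallest p. Alternatives were other pseudocounts (0.1 and 5), filters, normalizations, models and each library left out. Gene positions came from GENCODE M21 and promoter sequences from RefSeq (GRCm38.p6).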

Additional observations from a re-analysis of the deposited data

Results flagged for a closer look

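The mean of log2(FPKM + 1) over the 7 gamma-type GTPases was flagged because its B3galt5D116A difference from wild-type of the same sex changed sign between the sexes. The difference was 0.15 in the male libraries and -0.0095 in the female libraries. The female difference was smaller than the SD of this mean between the 2 wild-type libraries, 0.051. Each sex has 1 library per genotype, so the difference between the sexes was not tested. Gbp2 was at 3.03 FPKM in the B3galt5D116A male and 1.42 in the female library, beside 2.52 and 2.18 in wild-type.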

How the results depend on the processing

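With 2 libraries a genotype and absolute depth unknown, differences of members near 1 FPKM rest on few reads of unknown number. The count of members called in St6galnac6-/- against wild-type, 1 (Ifitm3), was 0 with a pseudocount of 5, no filter on low values, quantile normalization or a constant prior variance, and ranged from 0 to 1 with single libraries left out. In B3galt5D116A against wild-type the count was 0, and 1 (Ifitm3) in a fit of only the genotypes compared. That fit called 114 of all tested genes in this comparison, beside 9 in the main fit. The cause was not tested. The other 5 comparisons kept a count of 0 under all alternatives run.

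The mean difference over all members was 0.40 with a pseudocount of 0.1 and 0.10 with 5 in St6galnac6-/-. In B3galt5D116A these values were 0.36 and 0.098, and -0.18 with the median level over members in place of the mean. In B3gnt7-/- they were 0.67 and 0.20, and 0.27 with the median. A smaller pseudocount gives low genes more weight by construction. The antiviral less GTPase difference was -0.66 (pseudocount 0.1) and -0.23 (5) in St6galnac6-/-, 0.30 (0.1) and 0.34 (median) in B3galt5D116A, and -0.30 (median) in B3gnt7-/-.

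For single genes named in a comparison, with a pseudocount of 0.1, quantile normalization, median centring, no sex term and each library left out, 348 of 360 values kept the direction and the side of the threshold, 7 weakened Ifitm3 in St6galnac6-/- and 5 turned a sign. With libraries left out, Gbp2 in St6galnac6-/- ranged from -0.021 to 1.75, Trim30a in B3galt5D116A from -0.39 to 0.14 and Dhx58 in B3gnt7-/- from -0.21 to 0.13. The labels give no replicate numbers. Sex is a term of the fit and pairs the libraries across genotypes, and without it the members called in each comparison of genotypes were the same.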

Other observations

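Several genes of the gamma-type response lay below the level for testing, and are given here as values, chosen after their values were seen. Ciita, the master regulator of MHC class II genes, was at 0.0832 and 0.07903 in wild-type, 0.393 and 0.527 in St6galnac6-/-, 0.0286 and 0.0495 in B3galt5D116A and 0.252 and 0.194 FPKM in B3gnt7-/-. Nlrc5, which plays that part for MHC class I genes, was at 0.138 and 0.116 in wild-type, 0.504 and 0.834 in St6galnac6-/-, 0.232 and 0.219 in B3galt5D116A and 0.687 and 0.2601 FPKM in B3gnt7-/-. Both St6galnac6-/- libraries were above both wild-type libraries for these genes, as for Iigp1, and both B3galt5D116A libraries were below both St6galnac6-/- libraries. Tgtp1, a further GTPase, was listed at 0 in both wild-type libraries, the shallowest, and was at 0.391 and 0.583 FPKM in St6galnac6-/-. At these levels a few reads decide a value, and no test was run.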
